A study of Mus musculus with 12 samples.

Results

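Mitosis and chromosome segregation genes encode the machinery that condenses, attaches and separates chromosomes and then cuts the dividing cell apart. The set held 40 genes named by symbol, out of 48526 gene rows in each count table. They were chosen by function and not by a measured value, though with earlier results of these data known. All 40 matched 1 row and passed the low-count filter in all 9 comparisons made. The RNA came from epithelial cells freed from the proximal small intestine of 3-month-old female mice with a double knockout of KAT2A and KAT2B, a pair of histone acetyltransferases, and from control mice. DKO mice had received 100 mg/kg tamoxifen in corn oil with ethanol each day for 4 days by intraperitoneal injection, controls the same vehicle without tamoxifen, and the cells were taken 2 days after the last injection. From each of 4 animals, called control 1, control 2, DKO 1 and DKO 2, there were 3 libraries: unselected input RNA and RNA pulled down with J2 or with K1, antibodies that bind double-stranded RNA.

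Genotype and tamoxifen exposure went together, so that their parts in any difference below cannot be told apart. The samples are titled as whole intestine epithelial cells, while the protocol names the proximal part of the small intestine as their source. The labels give no promoter or cell type for the recombinase, and what genotype the controls carry beyond the word control is not given in the sources used here. RNA of the targeted genes was lower in DKO input but still present: Kat2b had 359 and 343 counts in control and 118 and 114 in DKO input, and Kat2a had 222 and 228 against 84 and 148. Input libraries held 10307281 to 11474107 gene-assigned counts and control pulldowns 13308021 to 16139531, while DKO pulldowns held only 2220291 to 5826361. The log2 CPM of the 2 DKO J2 libraries correlated across genes at 0.850, against 0.983 to 0.989 in input and in control pulldowns and 0.909 in DKO K1. Levels below are in CPM, counts relative to library size, scaled by TMM, a correction for library composition, over all 12 libraries.

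Cells preparing to divide switch on these genes together, late in the cycle. Cyclin-dependent kinase 1 with A and B cyclins starts mitosis, Plk1 and the Aurora kinases direct spindle and centromere steps, the kinetochore joins centromeres to microtubules, and the spindle checkpoint holds back the anaphase-promoting complex until every chromosome is attached. In the small intestine, division takes place in the crypts, in stem cells and their dividing daughters, while the differentiated cells of the villus have left the cycle. Many promoters of late cell cycle genes carry CCAAT boxes, bound by NF-Y, and the cell cycle genes homology region, often TTTGAA, bound by complexes built on MuvB. The transcription factor Foxm1, itself a member of the set, works with MuvB at such promoters.

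Promoter sequence was not used to choose the members and is described first. Of the 40 members, 34 had a window of 250 bases before the start in the RefSeq table (GRCm38.p6), and both strands were searched for the CCAAT box and for the homology region in the form given above. The CCAAT box stood in 28 of the 34 windows (82.35%), against 34.46% of all 27025 windows of that length, and at least 2 of them in 19 (55.88%, against 10.54%). TTTGAA, at any distance from the start, stood in 12 (35.29%, against 16.27% of all windows), and both motifs in 11 (32.35%, against 5.73%). No match to the one shared a base with a match to the other in the members. The related form TTCGAA was found in 2 windows (5.88%, against 1.34%). A match is a description of the letters, not a bound site.

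Of the 11 windows that held both, 10 belonged to genes that fell in DKO input, described below, but so did 38 of all 40 members. A link between the motifs and the fall was not tested. The first 5 of those in alphabetical order are printed here because both motifs can be seen in them, and that of Ect2, the member whose input RNA was nearest to no difference, is printed beside them. Matches to either motif are in capitals. A match on the opposite strand appears as its reverse complement. The windows lie at chr9:70421555-70421804 (minus strand, Ccnb2), chr4:118437344-118437593 (minus strand, Cdc20), chr10:69352913-69353162 (minus strand, Cdk1), chr19:37376132-37376381 (plus strand, Kif11), chr7:135716380-135716629 (minus strand, Mki67) and chr3:27153879-27154128 (minus strand, Ect2) of GRCm38.p6.
Ccnb2: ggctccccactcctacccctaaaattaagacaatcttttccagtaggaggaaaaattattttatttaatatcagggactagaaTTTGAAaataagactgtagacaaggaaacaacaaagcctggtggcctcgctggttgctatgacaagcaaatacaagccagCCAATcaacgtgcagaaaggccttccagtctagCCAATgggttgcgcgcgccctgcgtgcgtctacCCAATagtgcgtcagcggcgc
Cdc20: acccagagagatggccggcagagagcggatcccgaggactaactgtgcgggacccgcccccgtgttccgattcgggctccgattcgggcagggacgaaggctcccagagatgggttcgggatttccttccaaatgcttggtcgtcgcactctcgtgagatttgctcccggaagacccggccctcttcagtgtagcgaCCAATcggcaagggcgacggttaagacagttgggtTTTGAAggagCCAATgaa
Cdk1: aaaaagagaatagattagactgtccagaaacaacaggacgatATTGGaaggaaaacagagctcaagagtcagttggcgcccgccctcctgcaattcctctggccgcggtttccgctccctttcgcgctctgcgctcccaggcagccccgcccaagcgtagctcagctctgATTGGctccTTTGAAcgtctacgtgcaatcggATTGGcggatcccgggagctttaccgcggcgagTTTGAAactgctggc
Kif11: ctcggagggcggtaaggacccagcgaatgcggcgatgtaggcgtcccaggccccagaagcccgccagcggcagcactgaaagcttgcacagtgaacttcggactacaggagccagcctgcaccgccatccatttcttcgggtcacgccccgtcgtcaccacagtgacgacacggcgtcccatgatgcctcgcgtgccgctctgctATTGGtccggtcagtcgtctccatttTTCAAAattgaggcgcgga
Mki67: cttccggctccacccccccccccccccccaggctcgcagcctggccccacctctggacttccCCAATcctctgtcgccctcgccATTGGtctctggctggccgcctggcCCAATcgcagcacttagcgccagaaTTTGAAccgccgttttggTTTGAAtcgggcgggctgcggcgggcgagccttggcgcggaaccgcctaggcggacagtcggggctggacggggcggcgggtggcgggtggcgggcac
Ect2: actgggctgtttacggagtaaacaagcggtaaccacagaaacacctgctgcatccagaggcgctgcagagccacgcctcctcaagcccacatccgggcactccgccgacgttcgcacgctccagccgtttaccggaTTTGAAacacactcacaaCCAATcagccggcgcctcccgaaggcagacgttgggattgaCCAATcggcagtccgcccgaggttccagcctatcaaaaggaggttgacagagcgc

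The Ccnb2 window, of a B-type cyclin gene, held 3 CCAAT matches and 1 TTTGAA, and that of Mki67 held 3 and 2. Ect2 also held both, with 2 CCAAT matches and 1 TTTGAA, although it was not called in input. The TTTGAA match nearest the start began 18 bases before it in Cdc20, 15 in Cdk1, 19 in Kif11 and 98 in Mki67. In Ccnb2 and Ect2 the match began 167 and 114 bases before the start, upstream of every CCAAT match.

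The first comparison asked how much RNA of these genes the epithelium held in each genotype. In input, 38 of the 40 genes fell in DKO and none rose (edgeR quasi-likelihood test, Benjamini-Hochberg adjusted p under 0.05 over 15088 genes). Over all genes tested, 17.1% fell and 35.9% were called in either direction. The median log2 fold change of the members was -1.46, from -2.48 for Cdca3 to -0.32 for Ect2, and that of all genes was -0.00. The summed level of the 40 genes went from 936 ± 112 CPM (SD, n = 2) in control to 311 ± 80.8 in DKO, 3.01 times lower. Both DKO libraries lay below both controls for 40 of 40 members, against 38.9% of all genes. By the fitted values, 35 members were at least 2-fold lower, and 5 of them at least 4-fold (Mki67, Cdca3, Cenpf, Nusap1 and Racgap1). Fewer dividing cells and less of these RNAs per cell cannot be told apart in bulk RNA.

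**Figure D1:**
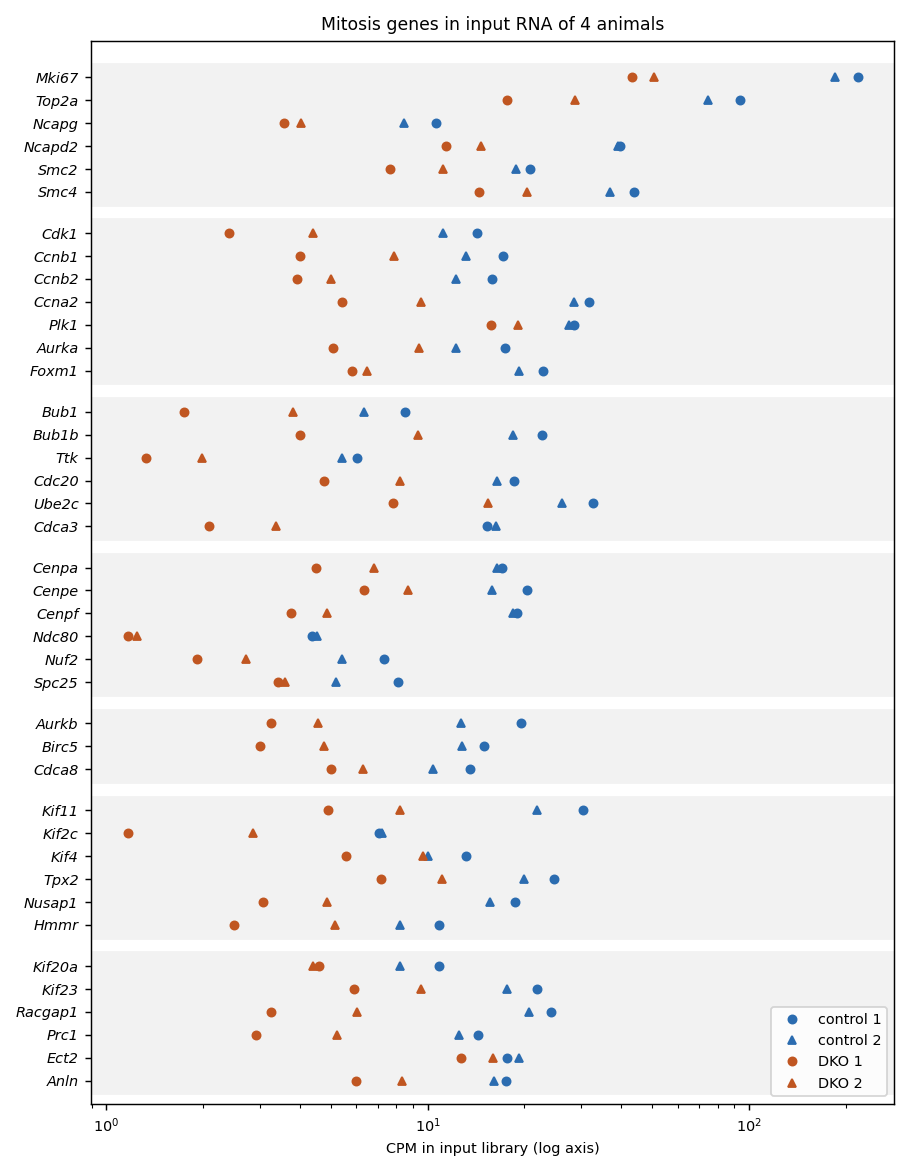
Level of each of the 40 genes in the 4 input libraries, as TMM-scaled CPM on a log axis, grouped by role as in the text (from the top: chromosome structure, cyclins with mitotic kinases and Foxm1, checkpoint and ubiquitination, kinetochore, chromosomal passenger complex, spindle motors, central spindle). Circles and triangles are replicates 1 and 2. Both DKO points lie left of both control points in each row, with Kif4 and Ect2 closest, and DKO 2 lies right of DKO 1 in 39 of 40 rows.

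The 2 DKO animals differed in the size of the fall. DKO 2 was above DKO 1 for 39 of the 40 members in input, and the summed level was 254 CPM in DKO 1 and 368 CPM in DKO 2. In control, 1015 CPM in animal 1 stood against 856 CPM in animal 2, with animal 2 higher for 4 members. Without DKO 1 the median log2 fold change was -1.18 and without DKO 2 it was -1.87.

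All 6 genes of chromosome structure fell, with a median of -1.42. Mki67 (chr7:135689784-135716361, GRCm38, minus strand), whose protein coats mitotic chromosomes and is the standard marker of cycling cells, had 2749 and 2576 counts in control input and 518 and 689 in DKO. Both DKO libraries were far below the controls, with a log2 fold change of -2.07 (SE 0.15, edgeR adjusted p 0.000157). It was also the most abundant member per length, at 20.1 ± 2.32 CPM per kb (SD, n = 2) in control input and 4.66 ± 0.52 in DKO. Top2a (chr11:98992943-99024189), the topoisomerase that untangles sister chromatids, had 1182 and 1040 against 212 and 391 counts (-1.82, SE 0.23, edgeR adjusted p 0.00115). The condensin subunit gene Smc2 changed least in this group, from 262 and 261 to 92 and 152 counts (-1.03, SE 0.21, edgeR adjusted p 0.00810). The other condensin genes were Ncapd2 at -1.55, Ncapg at -1.28 and Smc4 at -1.18.

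All 7 cyclins, mitotic kinases and Foxm1 fell as well, with a median of -1.61. Ccna2, the A-type cyclin of S phase and early mitosis, fell most, from 401 and 398 to 65 and 130 counts (-1.97, SE 0.25, edgeR adjusted p 0.00111). Cdk1, the kinase that starts mitosis, had 179 and 155 counts in control and 29 and 60 in DKO (-1.84, SE 0.30, edgeR adjusted p 0.00334). Its partner Ccnb1 went from 216 and 183 to 48 and 107 (-1.30, SE 0.31, edgeR adjusted p 0.0155), but 51.95% of its transcript is near-identical to pseudogenes such as Ccnb1-ps, which makes its count less certain. These 3 were separate between genotypes in each library pair. Plk1, the Polo kinase, changed least, with 358 and 382 against 189 and 260 counts (-0.64, SE 0.15, edgeR adjusted p 0.0133). Foxm1 (chr6:128362967-128376146, plus strand) had 288 and 268 counts in control and 70 and 88 in DKO (-1.74, SE 0.18, edgeR adjusted p 0.000530). The calls of Plk1 and Aurka were lost without control 1, and that of Aurka also without DKO 1 and without TMM. The other kinase, Aurka, had a log2 fold change of -0.98 and the cyclin Ccnb2 one of -1.61.

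In the group of spindle checkpoint and ubiquitination genes, 6 of 6 fell, with a median of -1.48. Cdca3, a trigger of mitotic entry, had the largest fold of the set, from 192 and 227 to 25 and 46 counts (-2.48, SE 0.26, edgeR adjusted p 0.000500). Cdc20, which activates the anaphase-promoting complex, had 233 and 229 against 57 and 112 counts (-1.38, SE 0.26, edgeR adjusted p 0.00581). Ube2c, the ubiquitin-conjugating enzyme of that complex, changed least, from 413 and 365 to 94 and 210 (-1.30, SE 0.29, edgeR adjusted p 0.0118). The checkpoint kinases and their partner lay between, with Ttk at -1.73, Bub1b at -1.58 and Bub1 at -1.35.

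The 6 centromere and kinetochore genes fell too, with a median of -1.46. Cenpf, a large kinetochore and nuclear matrix protein, had 238 and 257 counts in control and 45 and 66 in DKO (-2.08, SE 0.20, edgeR adjusted p 0.000382). Spc25, a subunit of the NDC80 complex that grips microtubules, changed least, from 102 and 72 to 41 and 49 (-0.88, SE 0.28, edgeR adjusted p 0.0470). The control and DKO counts of Spc25 did not overlap, but its call was lost without control 1, DKO 1 or DKO 2 and by DESeq2. Ndc80 (-1.84) and Nuf2 (-1.40) of the same complex fell further, as did Cenpa, the centromeric histone H3 variant, at -1.52 and the motor gene Cenpe at -1.23.

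The chromosomal passenger complex, which corrects wrong attachments and then moves to the spindle midzone, was represented by 3 genes, and 3 fell. Aurkb, its kinase, had 245 and 177 counts in control input and 39 and 62 in DKO (3.99 times lower by the fit, edgeR adjusted p 0.00183). Birc5, or survivin, had a log2 fold change of -1.79, and Cdca8, or borealin, went from 170 and 144 to 60 and 86 counts (-1.03, SE 0.23, edgeR adjusted p 0.0118), a call lost without control 1.

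Among 6 spindle motors and microtubule-binding genes, 5 fell. Nusap1, which bundles spindle microtubules, changed most, from 235 and 217 to 37 and 66 counts (-2.06, SE 0.25, edgeR adjusted p 0.000966). Kif4 (chrX:100625737-100727214, plus strand), a chromokinesin, was 1 of the 2 members not called: it had 166 and 139 counts in control and 67 and 132 in DKO (-0.55, SE 0.29, edgeR adjusted p 0.172). DKO 1 was well below the controls and DKO 2 nearly level with control 2. Exons of Pdzd11 on the opposite strand cover 15.09% of its exon bases. Kif11, the motor that pushes spindle poles apart, had a log2 fold change of -1.95, Kif2c -1.76, Hmmr -1.27 and Tpx2 -1.24.

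Of 6 central spindle and cytokinesis genes, 5 fell. Racgap1, which with Kif23 forms centralspindlin, had 305 and 288 counts in control and 39 and 82 in DKO (-2.23, SE 0.27, edgeR adjusted p 0.00101). Ect2 (chr3:27097222-27153878, minus strand), the exchange factor that switches on RhoA at the cleavage plane, was the other member not called, with 222 and 268 counts in control and 152 and 218 in DKO (-0.32, SE 0.17, edgeR adjusted p 0.181). In counts its DKO 2 library lay just under control 1, and in CPM the gap was 16.0 to 17.6. Prc1, which crosslinks the midzone microtubules, had a log2 fold change of -1.67, Kif23 -1.30, Anln -1.19 and Kif20a -1.05, whose call was lost without control 1. Exons of Cdc23 on the opposite strand cover 29.3% of the exon bases of Kif20a.

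The number of input calls moved little in most other settings. The exception was a single fit over all 12 libraries, in which the pulldowns share the estimate of spread: 19 members were then called, all lower and all among the 38.

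The same animals' pulldown libraries were then compared between genotypes, which asks how much RNA of each gene the antibody recovered and mixes its abundance with its recovery. In J2 libraries 2 members fell and none rose, against 6.16% of 13181 genes lower, 6.02% higher and 12.2% called in all (edgeR quasi-likelihood test). The members' median log2 fold change was -0.34, and that of all genes was 0.03. In all, 11 of 40 members had an unadjusted p under 0.05, each lower, against 35.4% of all genes in either direction and 18.1% lower. Foxm1 counts were 1984 and 1511 with J2 from control and 53 and 52 with J2 from DKO animals, which is 136 and 122 CPM against 13.5 and 16.0 CPM. Control libraries were higher by far, by a fitted log2 value of -3.06 (SE 0.36, edgeR adjusted p 0.0287). Ccna2 had 341 and 266 against 26 and 19 counts (-1.79, SE 0.38, edgeR adjusted p 0.0433).

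The DKO J2 libraries often disagreed. DKO 2 was above DKO 1 for 36 of 40 members, and the summed levels were 410 and 810 CPM against 1303 and 1211 CPM in control. Without DKO 2 the members' median log2 fold change was -1.07, against -0.10 for all genes. Without DKO 1 it was -0.03, against -0.08 for all genes. Both calls were lost without control 1. That of Ccna2 was also lost without control 2, without TMM and with the replicate number as a block. The count of members called was 1 without TMM, 6 by DESeq2, 9 without a low-count filter and 11 in the 12-library fit, each all lower. No share of all genes called stands beside these counts, so they are not a result about the members. Both DKO libraries lay below both controls for 21 members (36.9% of all genes) and above for 1 (29.6%).

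In K1 libraries 11 members fell and none rose, against 13.9% of 12888 genes lower and 27.1% called in all. The median was -0.71 for the members and -0.02 for all genes. Cenpa had 369 and 239 counts in control K1 and 10 and 8 in DKO (-2.64, SE 0.44, edgeR adjusted p 0.00708). Cdca3 had 234 and 204 against 8 and 6 (-2.56, SE 0.44, edgeR adjusted p 0.00798), and Foxm1 1179 and 859 against 42 and 34 (-2.26, SE 0.34, edgeR adjusted p 0.00553). In these 3 genes each DKO library was far below both controls. The others that fell were Racgap1 (-2.19), Ccna2 (-1.79), Kif11 (-1.69), Cenpf (-1.47), Ncapd2 (-1.36), Top2a (-1.30), Cdc20 (-1.02) and Ect2 (-0.85). The calls of Cdc20 and Ect2 were lost by DESeq2. Foxm1 and Ccna2 were called with both antibodies, though the J2 call of Ccna2 was lost in several settings. Both DKO libraries lay below both controls for 26 members, against 42.3% of all genes. Without a low-count filter the count was 17, with no share of all genes beside it. Of the 11 calls, 8 were lost without control 1 and 5 without control 2. The members' median was -1.44 without DKO 2 and -0.38 without DKO 1, against -0.08 and -0.09 for all genes.

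**Figure D2:**
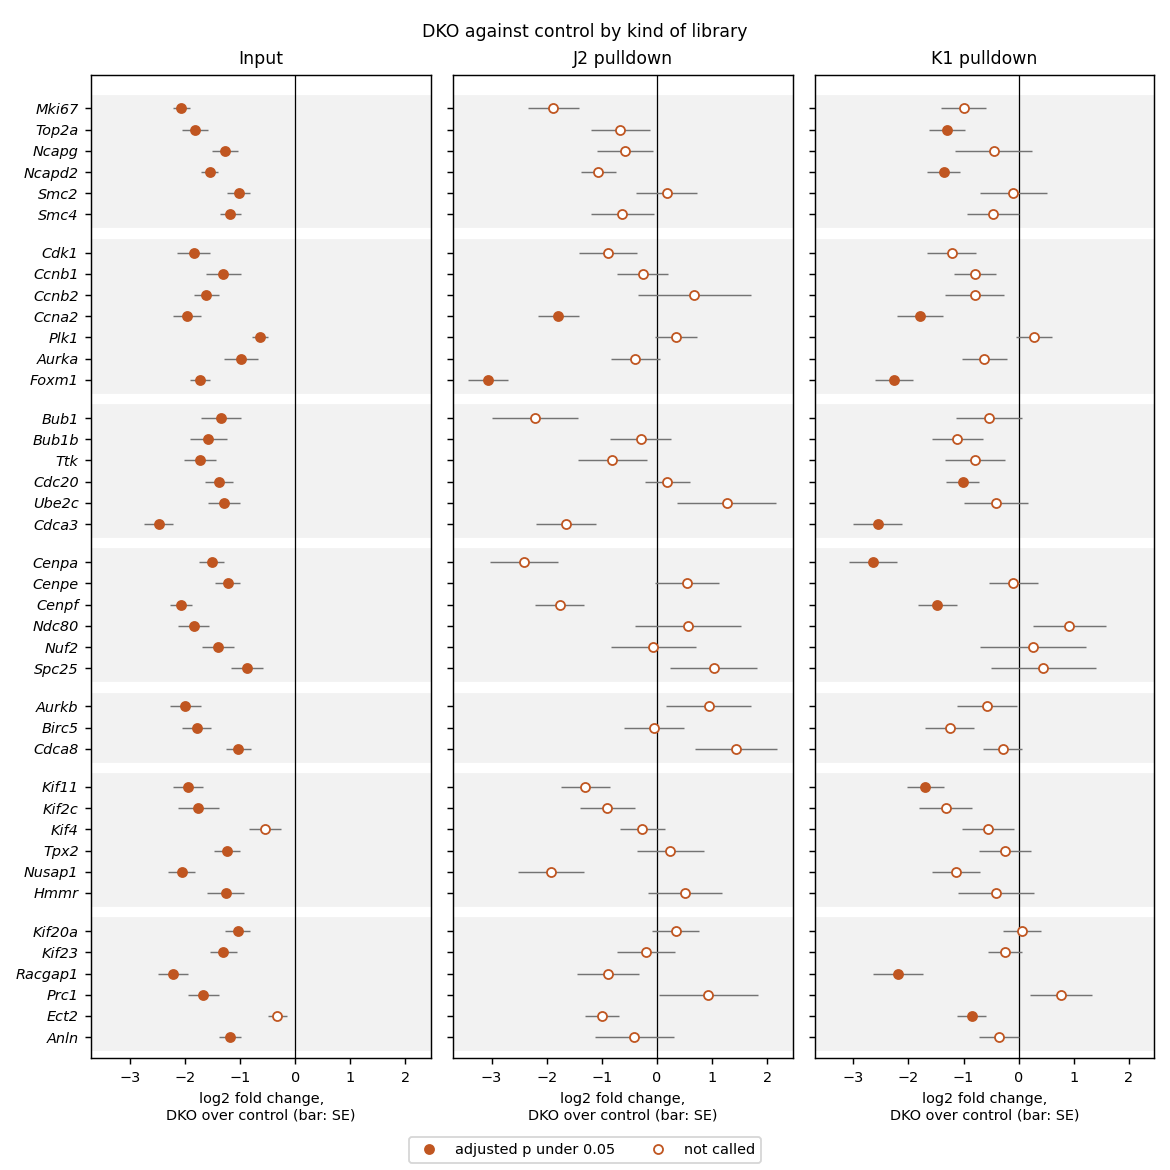
Log2 fold change of each gene in DKO over control, in input, J2 and K1 libraries (3 panels, n = 2 against 2 each), with bars for 1 SE and filled points where the edgeR adjusted p was under 0.05. The input points sit left of 0 in all 40 rows, while the J2 points spread to both sides, 26 below and 14 above 0, with wider bars.

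Recovery by each antibody was next measured against input of the same genotype. In control, J2 recovered 4 members above input, against 15.2% of 15923 genes, and 3 below it, against 14.6% (29.8% in all). The median of the members was -0.29, against -0.07 for all genes. Foxm1 stood highest. Its level was 22.9 and 19.3 CPM in control input and 136 and 122 CPM in control J2, a log2 difference of 2.62 (SE 0.23, edgeR adjusted p 0.00188). Both J2 libraries were several times above their input. Ect2 was next, from 17.6 and 19.3 to 44.3 and 45.2 CPM (1.28, SE 0.22, edgeR adjusted p 0.00557), then Mki67 (1.18) and Cenpf (1.12). Below input lay Spc25 (-1.74, SE 0.54, edgeR adjusted p 0.0412), Ccnb1 (-1.23) and Ncapg (-1.19). Of these 7 calls, 3 were left without TMM and none without control 1 or control 2. The DKO libraries enter this fit through the shared estimate of spread. The members' median was -0.42 without DKO 1 and -0.28 without DKO 2, against -0.21 and -0.08 for all genes. With each animal's J2 library paired to its input, the call of Ccnb1 was lost and those of Ube2c and Kif4 were gained.

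In DKO, J2 recovered 10 members above input, against 12.2% of all genes, and none below (25.7% called in all). The members' median was 0.87 and that of all genes 0.10. Aurkb went from 3.25 and 4.55 CPM in input to 6.87 and 31.8 CPM in J2 (2.32, SE 0.64, edgeR adjusted p 0.0316), so that the 2 animals differed several times over. Cdca8, its partner, went from 5.00 and 6.31 to 8.40 and 32.1 CPM (1.85, SE 0.57, edgeR adjusted p 0.0457), and Cenpe from 6.33 and 8.66 to 13.7 and 38.5 CPM (1.82, SE 0.45, edgeR adjusted p 0.0235). In each of these, DKO 2 was the higher of the pulldowns. The others were Tpx2, Cenpf, Mki67, Foxm1, Kif4, Cdc20 and Ncapd2, from 1.61 to 0.82. All 10 calls were lost without control 1 and without control 2. The members' median was 0.80 without DKO 1 and 0.63 without DKO 2, against -0.19 and -0.03 for all genes. With DESeq2 size factors 5 were called. With the animals paired, 13 were called, all higher, as Ncapd2 was lost and Bub1b, Kif23, Racgap1 and Prc1 were gained.

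K1 in control recovered 3 members above input and 1 below, of which Foxm1, Ect2 and Spc25 were also called with J2. The background was 19.7% higher and 20.1% lower of 15908 genes (39.8% in all). Foxm1 was at 72.6 and 63.9 CPM in K1, a log2 difference of 1.62 (SE 0.23, edgeR adjusted p 0.000683), and Ect2 at 49.7 and 45.6 CPM (1.29, SE 0.20, edgeR adjusted p 0.00105). Ncapd2 had a difference of 0.90 and Spc25 one of -1.58. The median of the members was 0.02 and that of all genes 0.00. Both moved together with the scaling, to -0.10 and -0.12 with DESeq2 size factors and to -0.21 and -0.23 without TMM. With each animal's K1 library paired to its input, 9 members were called, 5 higher and 4 lower. All 4 calls of the unpaired fit were lost without control 1 and without control 2. The members' median was 0.00 without DKO 1 and 0.03 without DKO 2, against -0.04 and -0.01 for all genes.

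In DKO, K1 recovered 11 members above input, against 14.6% of all genes, and none below (35.6% called in all). The median was 0.55 for the members and -0.14 for all genes. Ndc80 had 14 and 17 counts in DKO input and 12 and 17 in the much smaller K1 libraries (1.92, SE 0.57, edgeR adjusted p 0.0248). Prc1 was at 2.91 and 5.21 CPM in input and 7.59 and 23.1 CPM in K1 (1.74, SE 0.49, edgeR adjusted p 0.0214), and Aurkb at 6.17 and 20.3 CPM in K1 (1.58, SE 0.50, edgeR adjusted p 0.0314). The K1 value was above the input value in both animals for each. With the animals paired, 19 members were called, 18 of them higher, and Cenpa alone was lower (edgeR adjusted p 0.0405). Without control 1 the count was 3 and without control 2 it was 4.

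Calls in DKO rested on the composition scaling. With library totals alone, no member was called with J2 and 1 with K1, which was lower, and the medians of all genes moved to -0.26 and -0.48 and those of the members to 0.64 and 0.22. With TMM the medians had been 0.10 and -0.14 for all genes and 0.87 and 0.55 for the members, so that the members' medians lay above those of all genes under both scalings.

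**Figure D3:**
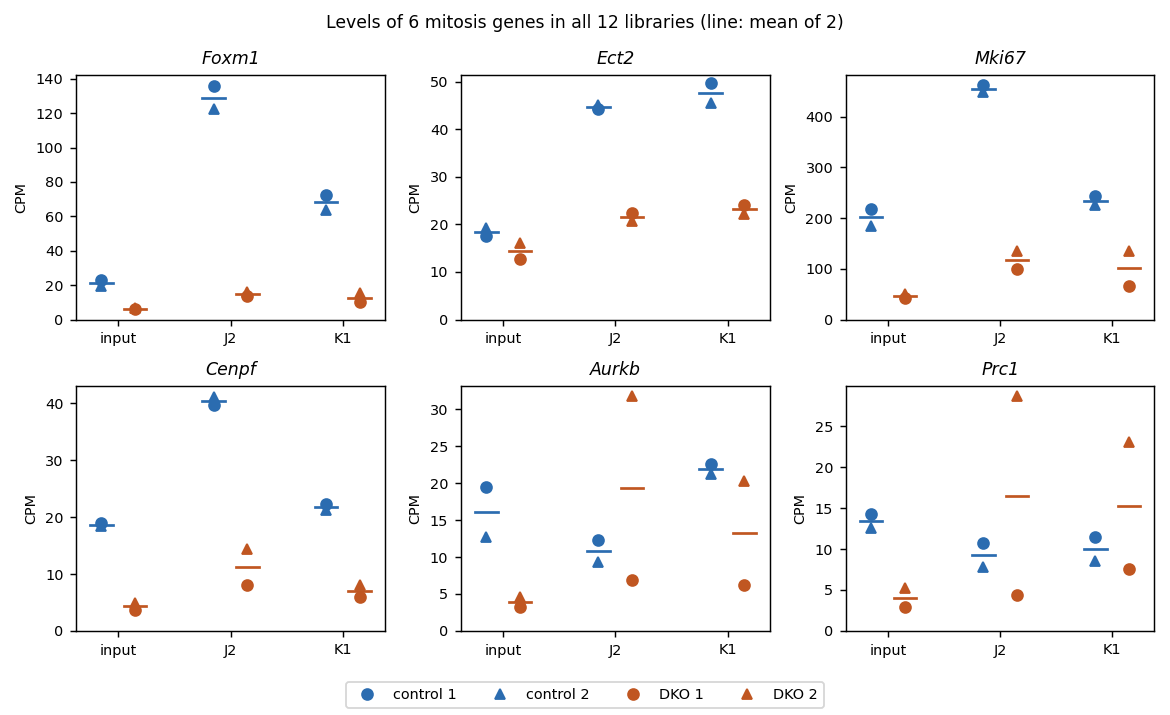
Levels of 6 genes in all 12 libraries as TMM-scaled CPM, each axis starting at 0, with circles and triangles for replicates 1 and 2 and a line for the mean of 2. Foxm1, Ect2, Mki67 and Cenpf are highest in control J2 or K1 libraries, while Aurkb and Prc1 reach their highest values in the J2 library of DKO 2, well above DKO 1. With K1, Aurkb in DKO 2 (20.3 CPM) lies below both controls (22.6 and 21.2 CPM).

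The design also asks whether recovery relative to input differed between the genotypes, and values here are DKO less control. No member passed with either antibody (edgeR quasi-likelihood test, 8 libraries each), against 2.71% of all genes for J2 (0.772% higher, 1.94% lower) and 5.47% for K1 (1.37% higher, 4.10% lower). For J2, 12 of 40 members had an unadjusted p under 0.05, near the 25.9% of all genes. Of these, 11 were higher in DKO, as were 1916 of the 15923 genes tested, and DESeq2 called 5. For K1, 6 of 40 had one, below the share of 23.5% over all genes, with 4 of them higher (7.35% of all genes). DESeq2 called 2, both higher. The shares of all genes are those of the edgeR fits, so the DESeq2 counts stand without one.

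Most J2 differences were above 0 all the same, for 36 of 40 members, against 50.1% of all genes, with a median of 1.02 for the members and 0.00 for all genes. Both DKO animals lay above both controls for 29 members (26.9% of all genes) and below for 4 (33.6%). For 14 members J2 minus input was below 0 in both controls and above 0 in both DKO animals: Top2a, Cdk1, Plk1, Bub1b, Cdc20, Cdca3, Aurkb, Birc5, Cdca8, Kif11, Hmmr, Kif20a, Racgap1 and Prc1. This held for 8.36% of all genes. The opposite was seen for 0 members and 8.16% of all genes. The 3 members of the chromosomal passenger complex had the highest group median for J2, at 2.43. This did not hold for K1, where their median was 0.58 and that of the centromere and kinetochore genes 0.99.

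By smallest p, Foxm1 came first and went the other way. For J2 minus input its values were 2.56 and 2.65 for control and 1.18 and 1.29 for DKO on the log2 CPM scale, a fitted difference of -1.33 (SE 0.33, unadjusted p 0.00347, edgeR adjusted p 0.0679). The DKO values were still above 0, but each was below both controls. Cdc20 was at -0.41 and -0.58 in control and 1.33 and 0.83 in DKO (1.57, SE 0.46, edgeR adjusted p 0.0921), and Aurkb at -0.65 and -0.45 against 1.04 and 2.75 (2.89, SE 0.86, edgeR adjusted p 0.0945). In both, the genotypes did not overlap. The other 3 members below 0 included Cenpa, the centromeric histone gene, at 0.96 and 0.83 in control and -0.65 and 0.28 in DKO (-0.94, SE 0.60, edgeR adjusted p 0.353), and Ect2, at 1.32 and 1.22 against 0.81 and 0.36 (-0.67).

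For K1, 33 of 40 differences were above 0, against 41.3% of all genes, with a median of 0.59 for the members and -0.20 for all genes. The K1 and J2 libraries were set against the same input libraries, in which all 40 members were lower in DKO. The differences of the antibodies are therefore not independent. Both DKO animals lay above both controls for 24 members (20.4% of all genes) and below for 4 (38.2%). Ndc80 was at -0.14 and -1.05 in control and 1.16 and 2.45 in DKO (2.54, SE 0.71, unadjusted p 0.00473, edgeR adjusted p 0.0640). Prc1 was at -0.31 and -0.54 against 1.32 and 2.10 (2.23, SE 0.65, edgeR adjusted p 0.0726). Both genes were separate between genotypes. With each animal's K1 library paired to its input, these 2 passed, with differences of 2.61 (edgeR adjusted p 0.0180) for Ndc80 and 2.24 (edgeR adjusted p 0.00251) for Prc1. Cenpa had the third smallest p, at 0.41 and 0.11 in control and -0.87 and -0.88 in DKO (-1.28, SE 0.48, edgeR adjusted p 0.142).

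**Figure D4:**
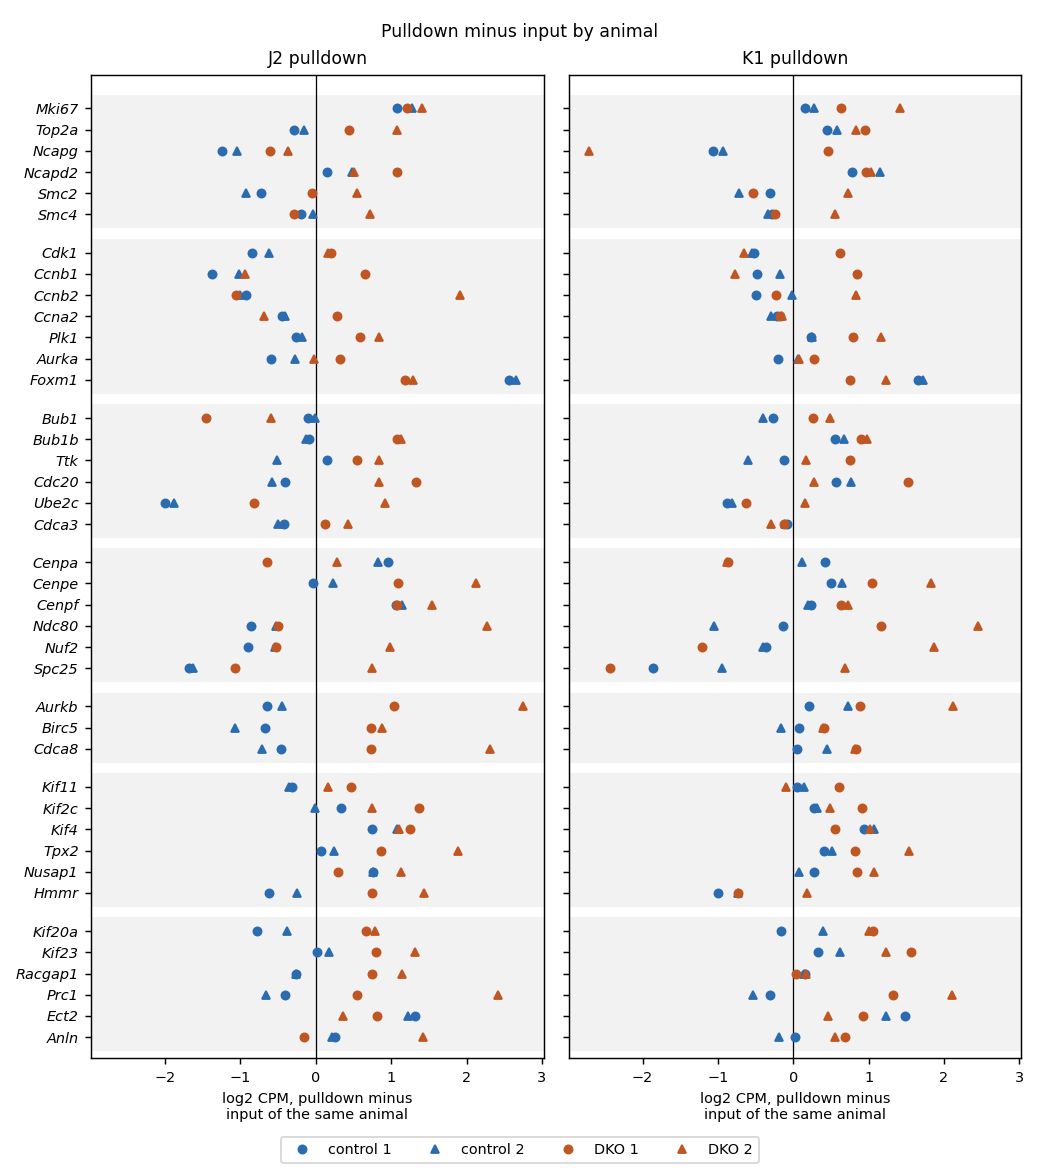
Log2 CPM in the J2 (left) or K1 (right) pulldown minus that in input of the same animal, for the 40 genes, with blue for control, orange for DKO and circles and triangles for replicates 1 and 2. Orange points lie mostly right of blue ones, above both blue points for 29 genes with J2 and 24 with K1, while Foxm1, Cenpa and Ect2 go the other way in both panels. Both panels subtract the same input values, so they are not independent.

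Depth moved with genotype in these comparisons. The median member had 54.5 and 90.5 counts in DKO input, 25.5 and 47.5 in DKO J2 and 26 and 22.5 in DKO K1, and 8 members had under 10 counts in at least 1 DKO J2 library and 10 in at least 1 DKO K1 library. Thinned to 2220291 counts in every library and with the animals paired, the members' median differences were 1.03 for J2 and 0.76 for K1, and 0 and 2 members passed. The 2 for K1 were Aurkb and Prc1, while Ndc80 did not pass at equal depth (edgeR adjusted p 0.127). Without DKO 1 the members' median differences were 1.14 for J2 and 0.50 for K1, against -0.15 and -0.42 for all genes. Without DKO 2 they were 0.74 and 0.42, against -0.12 and -0.22. The lone DKO animal is assumed in those fits to vary as the controls did.

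Other genes of the cell cycle were counted from lists chosen for function, to be read against the 17.1% of all genes that fell in input and the 18.8% that rose. Of 51 other mitosis genes tested in input, 38 fell and 2 rose. The largest folds were those of Kif15, a spindle motor, from 216 and 216 to 21 and 58 counts (-2.38, edgeR adjusted p 0.00200), and Spag5, or astrin, from 363 and 398 to 58 and 83 (-2.35, edgeR adjusted p 0.000168). The 2 that rose, named after their values were seen, were Gtse1, a microtubule-binding protein of G2 (1.22), and Pttg1, or securin (1.14). Gtse1 had 105 and 78 counts in control input and 146 and 262 in DKO.

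Among 29 DNA replication genes tested, 23 fell and 0 rose, with Dtl at -2.38 and Mcm6, a subunit of the replicative helicase, at -1.64. G1/S control had 5 lower, led by E2f8 (-2.29) and E2f1 (-1.89), and 1 higher, of 14. Cohesin genes fell in 8 of 13 cases, with the acetyltransferase gene Esco2 at -2.31 and Cdca5, or sororin, at -1.51. The DREAM and MuvB list had 3 of 13 lower (Tfdp2 -1.27, Rbl2 -0.95), and the anaphase-promoting complex 3 of 16 lower (Anapc5 -1.14, Anapc11 -0.90), both near the share of all genes. Of 6 CDK inhibitor genes, 3 fell and 2 rose. Cdkn1a, or p21, had 2033 and 2260 counts in control and 6296 and 5312 in DKO (1.53, SE 0.17, edgeR adjusted p 0.000626), and Cdkn2c, or p18, had 77 and 77 against 24 and 20 (-1.72, edgeR adjusted p 0.00306).

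In pulldowns, where 6.16% (J2) and 13.9% (K1) of all genes fell, of the 51 other mitosis genes, 1 fell and 2 rose with J2 and 9 fell and 2 rose with K1. Mad2l1, the spindle checkpoint protein MAD2, went from 1364 and 1391 counts with J2 in control to 16 and 16 in DKO (-4.45, SE 0.39, edgeR adjusted p 0.0287), with -3.49 in K1. Gtse1 rose by 3.15 in J2 and 2.20 in K1. With J2 the lists had 2 lower and 0 higher for the anaphase-promoting complex, cohesin and DREAM and MuvB each, 1 lower for G1/S control, 1 higher for DNA replication and 0 for CDK inhibitors. With K1 there were 4, 8, 4, 5, 5 and 1 lower in that order, and 1 higher, in DNA replication.

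Markers of some cell types in the preparation also differed between genotypes in input, and in both directions. The 10 stem cell markers summed to 736 to 738 CPM in control input and 258 to 336 CPM in DKO, and 6 of 10 fell and 0 rose, led by Olfm4 (-3.04) and Smoc2 (-2.63). None of them was at 0. The 8 T and NK cell markers summed to 118 to 122 CPM against 74.9 to 88.4 CPM, with 5 lower, and the 7 Paneth markers to 3176 to 3654 CPM against 1409 to 2759 CPM, with 1 lower and 1 higher. The 8 general epithelial markers overlapped between genotypes, at 6527 to 6683 CPM against 5817 to 7149 CPM, with 1 higher. The part of cell makeup in the members' fall was not tested.

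The same shares of all genes, 17.1% lower and 18.8% higher, stand beside the counts of the remaining lists. Summed enterocyte markers overlapped, at 26557 to 29288 CPM against 23706 to 32174 CPM, but 4 of 10 were lower. Lct went from 27736 and 42571 counts in control to 717 and 944 in DKO (-5.31, edgeR adjusted p 5.32e-05), and Sis had -1.36. Summed goblet markers overlapped too, at 10223 to 11393 against 9783 to 12268 (2 of 7 higher). Enteroendocrine markers (188 to 203 against 238 to 315 CPM, 4 of 8 higher), tuft markers (55.2 to 63.5 against 115 to 132 CPM, 2 of 5 tested higher, Il25 at 0 in control) and myeloid markers (7.49 to 8.27 against 12.9 to 22.7 CPM, 3 of 5 tested higher) were above control in DKO. Markers of B and plasma cells, fibroblasts, endothelium, smooth muscle and red cells had no called gene and summed to at most 33.6, 4.91, 6.33, 8.08 and 3.91 CPM in any input library.

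The members differ in what can be measured of them by these counts. Their median merged exon length was 5194 bases, against 3509 for the protein-coding genes of the tables, and their median GC content 46.5% against 49.1%, and they lie on 16 chromosomes. Per kb of exon, control input levels ran from Mki67 through Plk1 (12.7 CPM per kb), Ube2c (11.4) and Cdc20 (9.37) down to Ndc80 (0.69), with Ube2c within 1 SD of Plk1. Across the 40 members, J2 minus input in control had a Spearman correlation of 0.41 with exon length and K1 minus input one of 0.38 with GC content, given as a description of genes measured in the same libraries. Reads were counted without regard to strand, and exons of 10 members run over exons of a gene on the opposite strand, so that reads of the 2 genes cannot be told apart there. Each library also has a separate tally of ambiguous reads, from 267285 to 863939. How many of them came from these exons is not known.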

How the data were processed

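Gene counts came from 12 libraries, 3 from each of 4 mice. The deposited values are whole-number counts per gene that the authors made without regard to strand, per the labels, from strand-specific, rRNA-depleted libraries with molecular identifiers. The submitters' processing notes name FastQC, STAR 2.7.10b, SAMtools 1.17, UMI-tools 1.1.4, HTSeq 2.0.2, DESeq2 1.40.1, edgeR 3.42.2 and deepTools 3.5.2, and the builds mm10 and GRCm38.p4, with no role or order. Reads assigned to no gene (18.7% to 61.2% of each table) entered neither library sizes nor tests. Gene symbols and coordinates are from GENCODE M21 (GRCm38), which matched 48144 of 48526 rows. Promoters are from RefSeq (GRCm38.p6), with 34 of 40 members matched.

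Counts were tested with edgeR 4.0.16 (quasi-likelihood, TMM, filterByExpr with a count minimum of 10, R 4.3.3), with p-values adjusted over all genes by Benjamini-Hochberg at a threshold of 0.05. The SE given with an edgeR log2 value is its absolute value divided by the square root of the F statistic of that test. Each genotype comparison used 4 libraries. Pulldown over input, and its difference between genotypes, used 8 libraries in 4 groups. CPM used TMM over 12 libraries, and log2 CPM a prior count of 2. Near-identical transcripts were sought with blastn 2.17.0+ (at least 97% identity over 100 bases).

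Alternatives were DESeq2 size factors, library totals without TMM, no low-count filter, DESeq2 1.42.0, a fit of 12 libraries, leaving out each animal, a replicate block, thinning to 2220291 counts, and a correction for GC content and length. Animal numbers in the labels tie a pulldown to its input, and deviations from group means correlated at 0.37 to 0.72 within animals, so the animal block pairs them. Control and DKO animals share only a replicate number. The shares of all genes called are those of the main fits, so counts of members under the alternatives cannot be read against them.

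The members, the other lists (other mitosis, anaphase-promoting complex, cohesin, DREAM and MuvB, G1/S control, DNA replication, CDK inhibitors and cell type markers) and the tests were chosen with earlier results of these data known. Named in full in input were the largest and smallest change per role and Mki67, Top2a, Cdk1, Ccnb1, Plk1, Aurkb, Cdc20 and Foxm1. Elsewhere they were the 3 largest called changes or, with none called, the 3 smallest p-values. The 2 largest called changes in input were named for the other cell cycle lists and for stem cell and enterocyte markers. In pulldowns they were named for the other mitosis list.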

Additional observations from a re-analysis of the deposited data

How the results depend on the processing

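In input, the members called lower numbered 33 to 39 when each animal was left out, 38 with the replicate number as a block and 19 in the 12-library fit, where 34 had an unadjusted p under 0.05, and all 40 stayed below 0 under every scaling. For DKO against control in J2 the count was 1 without TMM, 9 without a low-count filter, 6 by DESeq2, 11 in the 12-library fit, 4 with the replicate block (Foxm1, Cenpa, Cenpf and Nusap1) and 0 to 24 leaving out each animal. In K1 it was 17 without the filter, 11 with the replicate block and 3 to 27 leaving out each animal. For J2 over input the count in control was 3 without TMM, with 0 to 28 leaving out each animal, and in DKO 5 with DESeq2 size factors, 0 without TMM and 0 to 22. For K1 over input it was in control 8 without the filter, 9 with the animal as replicate block, 8 with that block and the GC and length correction, and 0 to 13 leaving out each animal. In DKO it was 1 (lower) without TMM, 19 with the block and 3 to 12. The J2 difference gave 8 without the filter, 5 by DESeq2 and 0 to 24 leaving out each animal, and 0 with the replicate block. The K1 difference gave 2 without the filter, by DESeq2, with the replicate block (Ndc80 and Prc1) and with thinning and the block (Aurkb and Prc1), 4 with the GC and length correction and the block, and 0 to 9 leaving out each animal. The cause was not tested, except that leaving out an animal leaves 1 library in its group, assumed to vary like the others. No share of all genes called stands beside these counts, so they describe the settings and not the members.

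Without TMM the median of all genes moved to -0.13 in input, -0.39 for DKO against control in K1, -0.45 and -0.26 for J2 over input in control and DKO, -0.23 and -0.48 for K1, and -0.30 for the K1 difference. The share of all calls that were higher moved from 52.4% to 42.1% in input, from 49.4% to 32.7% (J2) and 48.6% to 27.4% (K1) for DKO against control, from 51.1% to 34.6% (control) and 47.6% to 21.1% (DKO) for J2 over input, from 49.6% to 35.9% and 41.1% to 22.3% for K1 over input, and from 28.5% to 10.5% and 25.1% to 13.2% for the differences. At equal depth, 2 (J2) and 9 (K1) members were called for DKO against control.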

Other observations

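Outside the 40 genes, some other cell cycle genes passed the test of the difference in recovery between genotypes. Over all genes, 2.71% (J2) and 5.47% (K1) were called. Of 51 other mitosis genes tested, 3 were higher and 1 lower for J2, and 2 higher and 1 lower for K1. The anaphase-promoting complex (16 genes), cohesin (13), DREAM and MuvB (13) and G1/S control (14) had 1 lower each for J2. For K1 they had 1, 2, 1 and 2 lower. DNA replication had 1 higher of 29 for J2 and 0 for K1. Mad2l1, the checkpoint protein MAD2, had 185 and 156 counts in control input and 48 and 74 in DKO input, but 1364 and 1391 with J2 in control against 16 and 16 with J2 in DKO. Its recovery was lower in DKO by both antibodies (-3.04 for J2, edgeR adjusted p 0.0291, and -2.28 for K1, edgeR adjusted p 0.0375). Also lower by both were Tfdp2, a partner of E2F factors (-2.69 and -2.42), Cdk6, a G1 kinase (-2.91 and -1.78), Cdc27, a subunit of the anaphase-promoting complex (-2.19 and -1.93), and Esco1, a cohesin acetyltransferase (-2.12 and -1.67). Higher by both were the spindle motors Kif22 (2.66 and 1.81) and Kifc1 (2.71 and 2.24). With the animals paired, no gene was called for J2, so these J2 calls rest on the unpaired fit. These genes were named after their values were seen, and both antibodies were set against the same input libraries, so their agreement is not independent.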
